A study of Mus musculus with 17 samples.

Results

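Zscan4c, Zscan4d and Zscan4f are near-identical mouse genes that mark the 2-cell-like state of pluripotent cells, and they were followed here through 17 RNA-seq samples from a study of reprogramming without Nanog. They are 3 of the 28670 genes in the deposited tables, found by symbol (ENSMUSG00000054272, ENSMUSG00000090714 and ENSMUSG00000070828), and 3 of the 6 rows that carry a Zscan4 symbol. They were chosen by their measured FPKM and fragment values, because a single iPSC sample stood high in them, so the levels of that sample are given as a description and are not tested. RNA came from embryonic stem cells (ESC), induced pluripotent stem cells (iPSC), partially reprogrammed iPSC (piPSC) and embryonic fibroblasts (MEF).

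The samples of strain 129/B6 (v6.5) were WT ESC (n = 2, passage 10 to 15), WT iPSC (n = 1, passage 6), WT piPSC of clone B1 (n = 2, passage 6), Nanog -/- ESC (n = 2, passage 6) and Nanog -/- iPSC of the clones G2 (n = 2, passage 6) and G5 (n = 2, passage 6). Those of strain c57/b6 were WT ESC (n = 2, passage 10 to 15), WT iPSC (n = 2, passage 10 to 15) and WT MEF (n = 2, passage 2). Reprogramming used retroviruses for the factors Oct4, Sox2 and Klf4. Some cells also received c-Myc, and the labels do not say which clones these were. Per the labels' protocol, the Nanog -/- fibroblasts descended from parental Nanog -/- ESC by way of chimeric embryos. Picked iPSC colonies and the Nanog-null ESC were kept on feeder cells in 2i + LIF, and MEF in 10% FBS. All 11 samples of strain 129/B6 have codes that start with AC and all 6 of strain c57/b6 have codes that start with JI, so strain and sample series cannot be told apart. The series text calls the samples biological replicates, but no label ties them to separate cultures. The p-values below therefore reflect only how far these samples spread, which may be technical.

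Zscan4 proteins carry a SCAN domain and zinc fingers and are made in a burst at the 2-cell stage of the mouse embryo, when the embryo's own genome is switched on. In ESC cultures the genes are silent in most cells and strongly active in a few at any time, together with other genes of the 2-cell embryo, and the cells leave that state again. The proteins are known for their part in telomere lengthening by recombination and in keeping the chromosomes of long-cultured ESC intact. The genes lie in a cluster of tandem copies on chromosome 7, and a read often fits more than 1 copy.

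The stretch of promoter that the 3 genes share is shown because it makes plain how alike the copies are. It lies outside the annotated transcripts. The likeness of the transcripts, given below, is what limits how far values of single copies can be read. RefSeq places the 216-base stretch, in GRCm38.p6, at chr7:11005506-11005721 (plus strand) for Zscan4c, chr7:11166183-11166398 (minus strand) for Zscan4d and chr7:11397699-11397914 (plus strand) for Zscan4f. Each runs 5′ to 3′ on the gene's own strand, upstream of the annotated start, and capitals mark the 7 positions at which the copies differ.
Zscan4c: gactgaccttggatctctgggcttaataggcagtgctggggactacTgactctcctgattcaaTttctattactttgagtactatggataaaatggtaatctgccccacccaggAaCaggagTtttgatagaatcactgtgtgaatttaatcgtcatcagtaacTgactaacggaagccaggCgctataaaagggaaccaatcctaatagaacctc
Zscan4d: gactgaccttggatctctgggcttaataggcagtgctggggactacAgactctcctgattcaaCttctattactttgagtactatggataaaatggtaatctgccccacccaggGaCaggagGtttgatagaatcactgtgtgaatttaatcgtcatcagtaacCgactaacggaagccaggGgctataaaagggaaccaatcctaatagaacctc
Zscan4f: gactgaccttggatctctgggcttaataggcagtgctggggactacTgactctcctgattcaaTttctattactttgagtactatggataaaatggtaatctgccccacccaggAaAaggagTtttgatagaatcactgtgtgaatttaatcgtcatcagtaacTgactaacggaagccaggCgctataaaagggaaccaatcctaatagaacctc
Zscan4c and Zscan4f differed at 1 of the 216 positions, Zscan4c and Zscan4d at 6, and Zscan4d and Zscan4f at 7. The stretch ends 23 bases before the annotated start of Zscan4c, 34 before that of Zscan4d and at the start of Zscan4f. Searching both strands of the 250 bases before the start, the letters TATAAA occurred once in each copy, 54, 65 and 31 bases before the start of Zscan4c, Zscan4d and Zscan4f, and 12.4% of 32851 RefSeq promoter windows of the same length hold them. The letters CCAAT occurred once in each copy as well, against 33.8% of all windows. TGCACAC, a motif reported for Zscan4 proteins themselves, was found in none of the 3 windows and in 3.67% of all windows.

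The annotated transcripts of Zscan4c (2276 bases) and Zscan4d (2272 bases) were 97.1% identical over their alignment. That of Zscan4f was shorter (1829 bases) and, with gaps counted as differences, 78.3% identical to Zscan4c and 76.9% to Zscan4d. Of all 100-base windows, 68.6% in Zscan4c, 23.5% in Zscan4d and 89.5% in Zscan4f occur without a mismatch in another Zscan4 copy. Counting only the other 2 members as partners, the shares were 58.0%, 20.9% and 74.6%. How the authors' counting divided such fragments among copies is not given in the sources used here, so the split between the 3 genes is uncertain and each result is also given for their summed fragments. In the 9 samples of strain 129/B6 other than piPSC, with 1512 to 20867 summed fragments, Zscan4c took 29.6% to 43.2% of the sum, Zscan4d 31.9% to 48.3% and Zscan4f 18.7% to 28.7%.

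Libraries held 7.80 M to 43.5 M estimated fragments, 17.7 M to 43.5 M in strain 129/B6 and 7.80 M to 30.1 M in strain c57/b6. Nanog, the targeted gene, stood at 27.2 to 49.5 FPKM (fragments normalised for transcript length and library size) in the 6 Nanog -/- samples and at 568 and 574 in WT ESC of strain 129/B6, so it was lower but not at 0, and the extent of the deletion is not given in the sources used here. In MEF, 7 of 7 pluripotency markers stood at 0.601 FPKM or less. In piPSC, 6 of 7 pluripotency markers were lower than in WT ESC, Nanog at 3.1 and 2.9 FPKM among them, while Pou5f1, the gene of the Oct4 factor that was also delivered by retrovirus, stood at 6975 and 7303 FPKM against 757 and 760.

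Members of the trio were highest in the WT iPSC sample of strain 129/B6, intermediate in the other ESC and iPSC samples of that strain, close to 0 in piPSC and in all ESC and iPSC of strain c57/b6, and at 0 in MEF. Zscan4c stood at 114 FPKM in the 129/B6 iPSC sample, 28.1 and 35.2 in G5, 17.1 and 16.9 in G2, 15.2 and 15.5 in 129/B6 WT ESC and 8.49 and 9.24 in Nanog-null ESC. Zscan4c was further measured at 0.614 and 0.199 FPKM in c57/b6 ESC, 0.355 and 0.195 in c57/b6 iPSC, 0.169 and 0.129 in piPSC and 0 in both MEF samples. The 5 groups at the top did not overlap each other for Zscan4c. One of them is the single iPSC sample for which the members were chosen. The share of all genes with such a lack of overlap was not counted, so it does not set Zscan4c apart. Among the low groups, the c57/b6 ESC and iPSC overlapped and both piPSC samples lay just below them in FPKM. Scaled to library size alone (CPM), piPSC (0.409 and 0.316) overlapped both c57/b6 ESC (0.942 and 0.385) and c57/b6 iPSC (0.572 and 0.332). These values rest on 3 to 12 fragments a sample.

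Zscan4d stood at 137 FPKM in the 129/B6 iPSC sample, 40.1 and 45.8 in G5, 26.8 and 26.2 in G2, 18.1 and 13.3 in 129/B6 WT ESC, and 16.1 and 14.6 in Nanog-null ESC. In the low groups Zscan4d was at 0.414 and 0.690 FPKM in c57/b6 ESC, 0.308 and 0.225 in c57/b6 iPSC, 0.293 and 0.299 in piPSC and 0 in MEF. For this copy alone, WT ESC and Nanog-null ESC of strain 129/B6 overlapped. Zscan4f stood at 136 FPKM in the 129/B6 iPSC sample, 44.1 and 50.4 in G5, 21.0 and 24.4 in G2, 19.4 and 17.9 in 129/B6 WT ESC and 12.9 and 9.43 in Nanog-null ESC. Its values were 0.130 and 0.168 FPKM in c57/b6 ESC, 0 and 0.0990 in c57/b6 iPSC, 0.0357 and 0.128 in piPSC and 0 in MEF.

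**Figure D1:**
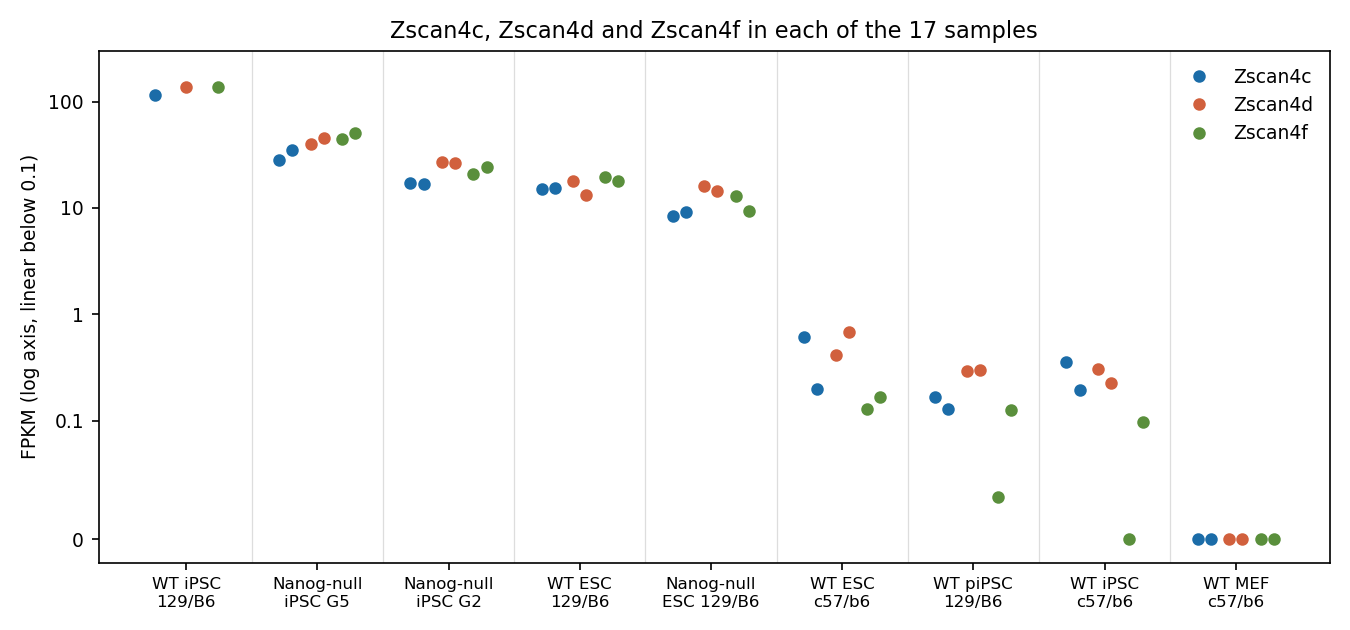
FPKM of Zscan4c, Zscan4d and Zscan4f (vertical axis, log scale that is linear below 0.1) in each of the 17 samples, grouped along the horizontal axis; each point is 1 sample. The 129/B6 iPSC sample lies above 100 for each gene, the other 129/B6 ESC and iPSC samples between 8.49 and 50.4, and the c57/b6 and piPSC samples below 1.

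Summed over the 3 genes, which removes the uncertain split among them but not that with the other copies, the 129/B6 iPSC sample held 20867 fragments, a CPM (fragments scaled to library size alone) of 775. G5 stood at 230 and 257 CPM, G2 at 135 and 136, 129/B6 WT ESC 99.7 and 88.6 and Nanog-null ESC 74.2 and 69.6. These 5 groups kept that order without overlap, which was not counted over all genes and does not set the members apart. The c57/b6 ESC stood at 1.65 and 1.80 CPM (21 and 14 fragments), piPSC 1.09 and 1.19 (32 and 34 fragments) and c57/b6 iPSC 1.002 and 0.798 (14 and 24 fragments). Of the low groups, both c57/b6 ESC samples lay above both c57/b6 iPSC samples, and their pooled fragments (35 and 38) gave a ratio of 1.98, with an exact 95% interval of 1.21 to 3.21 from counting error alone. The place of piPSC among them depended on the scaling: it was above the c57/b6 iPSC in CPM and below it, at mean ratios of 0.76 and 0.84, with TMM scaling and DESeq2 size factors. Both MEF samples held 0 fragments, and 3 fragments, the limit that a count of 0 allows, would be 0.343 and 0.151 CPM. Such intervals and limits cover counting error only. In bulk RNA, more cells in the Zscan4-positive state and more Zscan4 RNA per positive cell cannot be told apart, here or in any comparison below.

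Set beside the other groups, the 129/B6 iPSC sample had 3.18 times the mean summed level of G5, 5.72 times that of G2, 8.23 times that of 129/B6 WT ESC (94.1 ± 7.8 CPM, SD, n = 2) and 10.8 times that of Nanog-null ESC (71.9 ± 3.3, SD, n = 2). Against the 2 piPSC samples the ratio was 679, and against the 2 iPSC samples of strain c57/b6 it was 861 in CPM, 552 with TMM scaling and 569 with DESeq2 size factors. The nearest single sample was the second of G5, at a ratio of 3.01. The counting error of the iPSC sample's own fragments alone gave a 95% interval of 2.97 to 3.06. That of the 5929 fragments in the G5 sample is not in it, so the interval is too narrow for the ratio. With 1 sample in the group there is no replicate check on any of these ratios. For single genes the ratio to the highest other sample was 3.12 for Zscan4c, 2.89 for Zscan4d and 2.99 for Zscan4f.

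The remaining Zscan4 copies in the tables were also highest in the 129/B6 iPSC sample, with G5 next. Zscan4e was at 86.7 FPKM in the 129/B6 iPSC sample and at most 17.8 elsewhere, Zscan4b at 71.4 and at most 15.5, and Zscan4-ps2 at 60.9 and at most 19.8. In CPM, the ratio to the highest other sample was 4.71 for Zscan4e, 4.46 for Zscan4b and 2.93 for Zscan4-ps2, the first pair being above the ratios of the 3 members. These copies share sequence with the members and are not independent of them.

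A sample's standing above all others is common in this table, so the ratios need their background. Of the 15298 genes that reached 1 FPKM in 2 or more samples, 1618 (10.6%) were higher in the 129/B6 iPSC sample than in each of the other 16, and 32 (0.209%) were over 4 times higher. Ranked by this ratio, with 1 added to each CPM, Zscan4c, Zscan4f and Zscan4d came at places 39, 44 and 47, and the members were chosen with these values known.

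The 10 genes outside the family with the highest such ratio were Gm9049, Gm8607, Obox6, AI662270, Aqp9, Gm3395, Gm13078, Chit1, Tmem132c and 1700013H16Rik. Gm9049, a pseudogene in RefSeq, stood at 71.7 FPKM in the 129/B6 iPSC sample and at most 3.34 elsewhere. Obox6, a homeobox gene of the oocyte and early embryo, stood at 39.3 FPKM and at most 3.20 elsewhere. Chit1, a chitinase, stood at 46.1 FPKM against 4.74, and Aqp9, a channel for water and glycerol, at 15.1 against 1.22. For 8 of these 10 genes the next highest sample was a WT ESC sample of strain 129/B6, whereas for each Zscan4 copy it was a G5 sample.

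Genes known to be active with Zscan4 in the 2-cell-like state were taken as a list of 46 symbols, of which 39 were in the tables and 31 passed the level above. This list, like the others below, was drawn up with earlier results of these data known. Its counts, here and in later comparisons, are therefore a description and not independent support. In the 129/B6 iPSC sample 21 of the 31 were higher than in each of the other 16 samples, against 10.6% of all genes, and their median log2 difference from 129/B6 WT ESC was 2.18, against 0.01 for all genes. Gm5662 was at 338 FPKM in that sample, 89.7 and 113 in G5 and 43.8 and 45.3 in 129/B6 WT ESC. Zfp352, a zinc finger gene of the early embryo, was at 12.3 FPKM, against 2.75 and 2.48 in G5 and 1.14 and 1.45 in WT ESC. Tmem92 was at 55.7 FPKM against 21.6 and 23.5 in G5 and 9.98 and 9.58 in WT ESC. Dub1, a deubiquitinating enzyme of the Usp17-like family, was at 17.7 FPKM against 6.52 and 6.41 in G5 and 2.17 and 2.21 in WT ESC. Some entries of the list are related copies, the Usp17-like, Tdpoz and Trim43 genes among them. Whether such copies share fragments was not checked, so counts over the list are not counts of independent genes.

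Not every 2-cell-like gene had its highest value in the 129/B6 iPSC sample. Among the 10 of 31 that did not, Gm2022 stood at 28.1 FPKM in it and at 38.0 and 41.2 in G5, and Gm6763 at 67.3 and at 118 and 119. Tdpoz4 was likewise lower there (3.03 FPKM) than in G5 (8.22 and 8.56). Sp110, a nuclear body protein of the interferon response, was highest in piPSC, at 69.9 and 66.3 FPKM, against 64.5 in the 129/B6 iPSC sample and 13.0 and 15.0 in WT ESC.

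**Figure D2:**
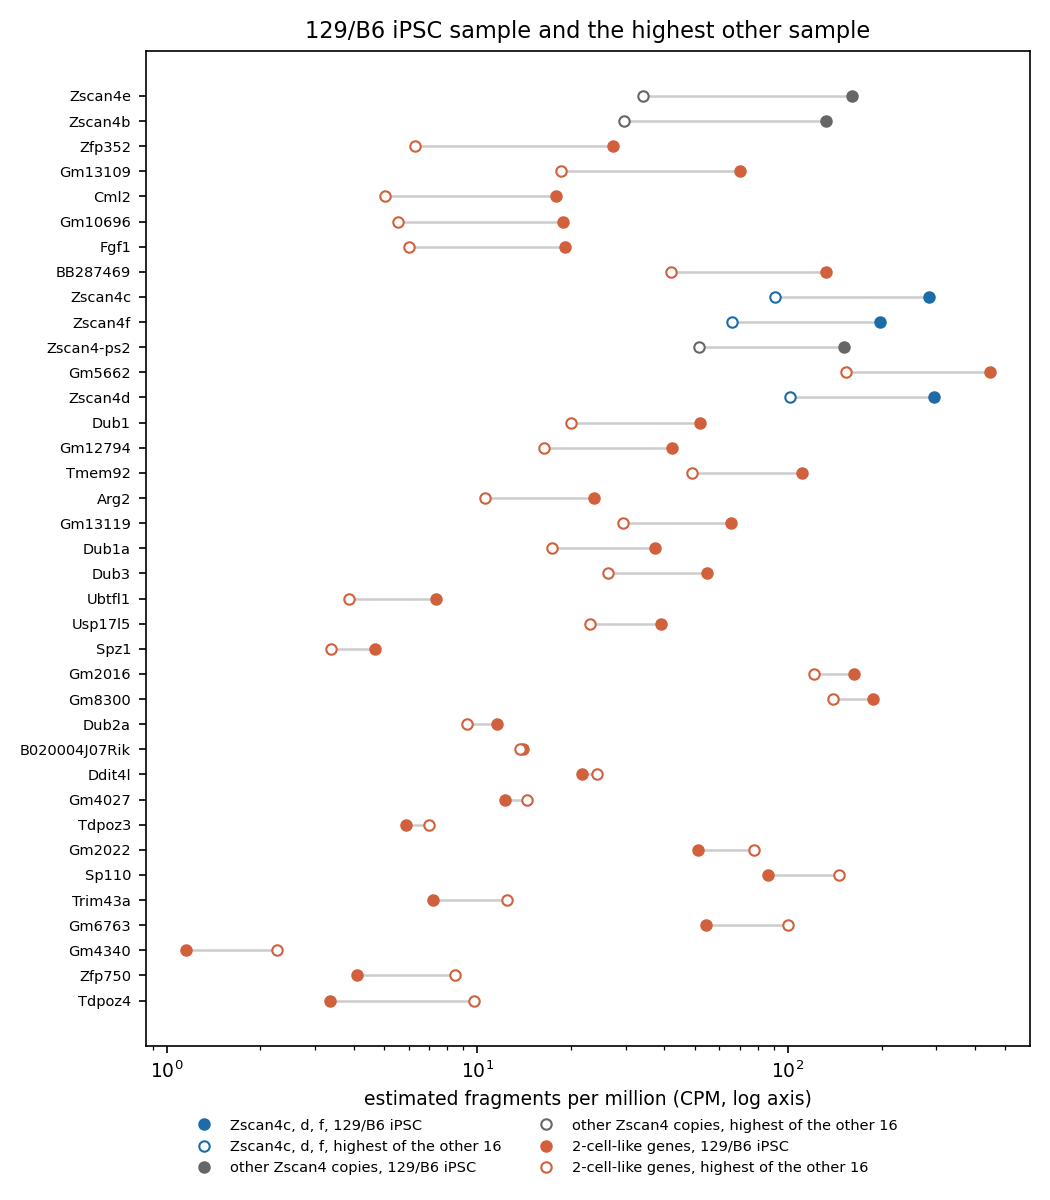
Estimated fragments scaled to library size (CPM, horizontal axis, log scale) in the 129/B6 iPSC sample (filled points) and in the highest of the other 16 samples (open points), for the 3 members, the 3 other Zscan4 copies and the 31 2-cell-like genes, ordered by the ratio. Filled points lie to the right for the 6 Zscan4 genes and for 21 of the 31 listed genes.

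Known regulators of the state were counted in the same way. Of 29 regulators, 13 (44.8%) were above each other sample, against 10.6% of all genes, and the median log2 difference from WT ESC was 0.08, against 0.01. The list was not split into genes that raise and genes that lower the state. Counts of regulators, here and below, therefore give no direction for the state. Dppa4 was not above each other sample, at 0.93 times the highest of them in CPM. Dppa2, a DNA-binding protein that helps to switch on 2-cell genes, was at 212 FPKM, against 61.6 and 70.4 in WT ESC and 0.646 to 56.8 in the other samples that were not at 0. Whsc2 (Nelfa), a subunit of the negative elongation factor, was at 69.7 FPKM, against 38.5 and 36.5 in G5 and 25.6 and 27.1 in WT ESC. Zfp42 (Rex1), a zinc finger protein of naive pluripotent cells, was at 55.3 FPKM, against 227 and 220 in WT ESC. Of 26 telomere and recombination genes, 7 (26.9%) were above each other sample, with a median log2 difference from WT ESC of -0.08. Dnmt3a, a de novo DNA methyltransferase placed in that list, was at 80.7 FPKM against at most 36.5 elsewhere.

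Markers of other cell types were read in the same sample. Summed over 8 fibroblast markers, which the feeder cells also express, it held 267 FPKM, against 184 and 196 in 129/B6 WT ESC, 479 and 479 in G5 and 3923 and 3966 in MEF, and 0 of the 8 were above each other sample. Primitive endoderm markers summed to 2.26 FPKM, against 2.87 and 3.48 in WT ESC. Trophoblast markers summed to 4.27 FPKM, against 3.37 and 4.15 in WT ESC. Cdx2 stood at 1.09 FPKM against 0.0315 and 0.0589, and Gata3 at 0.271 against 0.232 and 0.242. Eomes was lower than in WT ESC, at 2.92 FPKM against 3.03 and 3.74, and Elf5 was at 0. Of the 3 trophoblast markers that passed the level above, 0 were higher than in each other sample. The part of these markers in the Zscan4 levels was not tested.

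Loss of Nanog in ESC went with lower levels of some copies. From WT to Nanog-null ESC of strain 129/B6, Zscan4c fell by 0.76 ± 0.13 on the log2 scale (SE; edgeR quasi-likelihood test with Benjamini-Hochberg adjustment over 18077 genes, adjusted p = 6.1e-05) and Zscan4f fell by 0.66 ± 0.13 (adjusted p = 0.00044). Zscan4d had a log2 difference of -0.01 ± 0.13 (adjusted p = 0.94), and its samples overlapped between the groups. The summed fragments fell by 0.42 ± 0.098 on the log2 scale (adjusted p = 0.0012). With limma on log2(FPKM + 0.1) the calls of Zscan4c and Zscan4f were lost (adjusted p = 0.057 and 0.056), and with an added term for sample code that of the sum was (adjusted p = 0.14). That term merges WT ESC of both strains, and WT iPSC likewise, so it assumes equal iPSC-ESC differences in both strains. Both groups here have codes that start with AC, so the term cannot correct for sample series between them. In this comparison 61.9% of all genes tested passed, 32.8% of all as higher and 29.1% as lower, so the call of 2 of the 3 members as lower is to be read against a table in which most genes moved.

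Among 36 tested 2-cell-like genes, 17 fell and 8 rose with a median log2 difference of -0.46, against 0.05 for all genes. Gm13109, a gene of the Prame-like family, fell by 1.68 ± 0.18 on the log2 scale and Tmem92 fell by 1.14 ± 0.12, whereas Dub1 rose by 0.78 ± 0.16 and Dub3 by 0.78 ± 0.16. Other markers moved with the genotype. All 8 fibroblast markers rose, their sum going from 184 and 196 to 801 and 823 FPKM, and all 5 primitive endoderm markers rose, their sum going from 2.87 and 3.48 to 64.6 and 66.6 FPKM. All 7 pluripotency markers fell, with a median log2 difference of -0.82. Of 4 trophoblast markers, Cdx2 (6.88 ± 0.34) and Gata3 (4.63 ± 0.26) rose and Eomes fell by 1.31 ± 0.16. Passage differed as well, 10 to 15 in WT and 6 in Nanog-null ESC. Without the genes that were higher in MEF than in c57/b6 ESC, an alternative chosen after the data were seen, Zscan4c and Zscan4f still passed at -0.54 and -0.43, but the sum did not (-0.20, adjusted p = 0.084) and Zscan4d stood at 0.21 (adjusted p = 0.17). The part that the other marker levels, passage and any difference in culture medium have in these values was not tested.

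Nanog-null iPSC held more Zscan4 RNA than the Nanog-null ESC of the same strain. With G2 and G5 weighted equally, Zscan4c rose by 1.37 ± 0.11 on the log2 scale (SE; edgeR quasi-likelihood test, adjusted p = 2.0e-07), Zscan4d by 1.13 ± 0.11 (adjusted p = 1.3e-06) and Zscan4f by 1.58 ± 0.12 (adjusted p = 8.4e-08). The sum rose by 1.31 ± 0.089 (adjusted p = 2.4e-08), and each of the 4 iPSC samples lay above both ESC samples for every member. How many of all genes were likewise without overlap was not counted. Of all genes tested, 23.3% passed, 11.5% as higher and 11.9% as lower. Both groups were at passage 6 on feeders in 2i + LIF.

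Of the 36 2-cell-like genes, 28 rose in the Nanog-null iPSC and 0 fell by edgeR, with a median log2 difference of 1.47 against -0.02 for all genes. Tmem92 rose by 1.72 ± 0.11 on the log2 scale, Gm5662 by 1.39 ± 0.12 and Zfp352 by 1.53 ± 0.28. Of the regulators, 1 of 29 rose, Whsc2 (0.69 ± 0.084), and 8 fell, among them Lin28a, an RNA-binding protein that blocks let-7 miRNAs, by 1.58 ± 0.099, and Dppa2 by 0.30 ± 0.088. Telomere and recombination genes gave 1 higher and 4 lower of 28. Fibroblast markers gave 1 higher and 1 lower of 8, with sums of 801 and 823 FPKM in the ESC and of 479 to 1171 in the iPSC.

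The 2 Nanog-null iPSC clones differed from each other. G2 was lower than G5 in Zscan4c by -0.88 ± 0.12 on the log2 scale (SE; edgeR quasi-likelihood test, adjusted p = 9.9e-05), in Zscan4d by -0.68 ± 0.12 (adjusted p = 0.00098) and in Zscan4f by -1.13 ± 0.13 (adjusted p = 1.1e-05). The sum differed by -0.86 ± 0.097 (adjusted p = 1.2e-05), and no G2 sample reached a G5 sample in any member. The share of all genes without overlap between the clones was not counted. Of all genes tested, 12% passed, 6.78% as higher and 5.25% as lower in G2. With limma on log2(FPKM + 0.1) the calls were lost (adjusted p = 0.15, 0.081 and 0.072 for Zscan4c, Zscan4d and Zscan4f), and with an added term for sample code those of Zscan4c, Zscan4d and the sum were (adjusted p = 0.11, 0.28 and 0.25). G2 and G5 both have codes that start with AC, so that term cannot correct for sample series between them. It assumes equal iPSC-ESC differences in both strains.

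In the same comparison 21 of the 36 2-cell-like genes were lower in G2 and 0 higher by edgeR, with a median log2 difference of -1.01 against -0.01 for all genes. Gm2016 differed by -1.43 ± 0.11, Tmem92 by -1.38 ± 0.11 and Gm6763 by -1.38 ± 0.16, all lower in G2. Whsc2 was 1 of the 2 regulators that were lower in G2 (-0.71 ± 0.094), and 0 of 29 were higher. Fibroblast markers went the other way, 7 of 8 being higher in G2, with sums of 1117 and 1171 FPKM against 479 and 479 in G5. Without the genes that were higher in MEF, an alternative chosen after the data were seen, each member still passed (Zscan4c -0.82, Zscan4d -0.62, Zscan4f -1.07). The sum then stood at -0.80 (edgeR, adjusted p = 4.4e-05). The part that the fibroblast marker levels have in the clone difference was not tested.

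Partially reprogrammed cells had almost no Zscan4 RNA. From 129/B6 WT ESC to piPSC of clone B1, Zscan4c fell by 6.74 ± 0.22 on the log2 scale (SE; edgeR quasi-likelihood test, adjusted p = 2.1e-14), Zscan4d by 5.80 ± 0.20 (adjusted p = 5.7e-14) and Zscan4f by 7.17 ± 0.26 (adjusted p = 9.4e-14). The sum fell by 6.41 ± 0.15 (adjusted p = 3.3e-16), from a mean of 94.1 to 1.14 CPM. Of all genes tested, 72.6% passed, 31.5% as higher and 41% as lower, so a pass alone sets no gene apart here. Both piPSC samples are of 1 clone.

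Of the 36 2-cell-like genes, 28 fell in piPSC and 4 rose, with a median log2 difference of -4.71 against -0.17 for all genes. Sp110 was among those that rose (3.20 ± 0.11). Regulators fell in 24 of 29 cases and rose in 2, with Dppa2 lower by -6.58 ± 0.15 and Dppa4, its partner, by -6.53 ± 0.20. Telomere and recombination genes fell in 25 of 28 cases. Fibroblast markers fell in 8 of 8, to summed levels of 1.76 and 4.37 FPKM, against 184 and 196 in WT ESC, so these levels moved with this comparison too, and their part in the result was not tested.

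**Figure D3:**
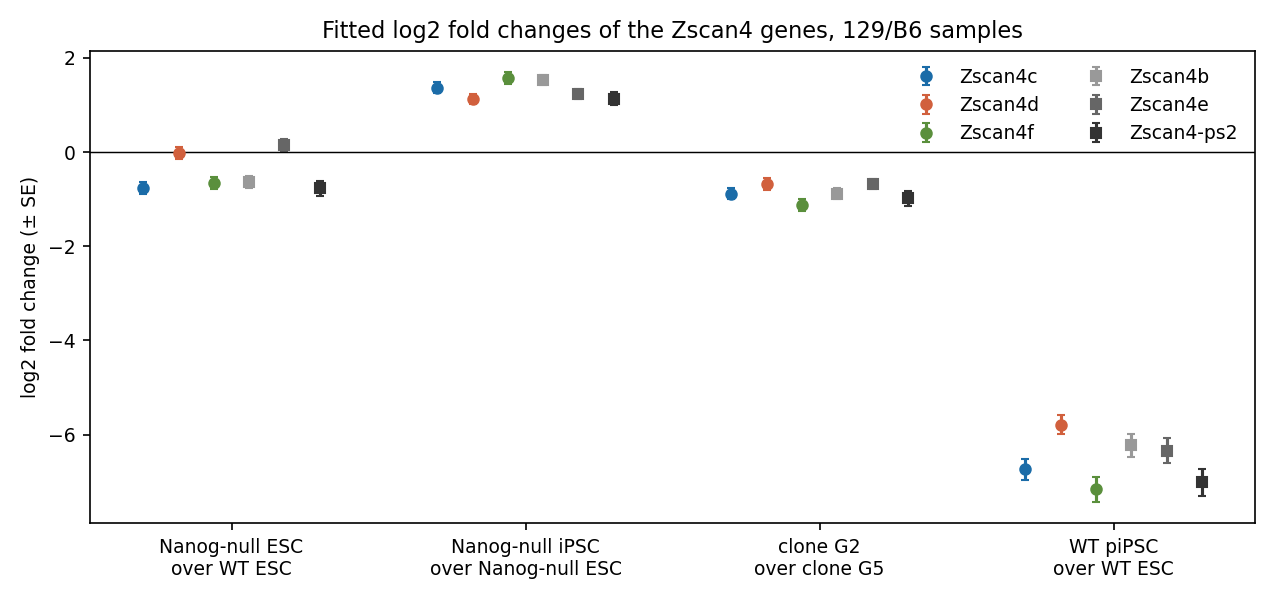
Fitted log2 fold changes with their standard errors (vertical axis) of the 3 members and the 3 other Zscan4 copies in the 4 comparisons between 129/B6 groups (horizontal axis). The copies lie together between 1.13 and 1.58 for Nanog-null iPSC over Nanog-null ESC and between -5.80 and -7.17 for piPSC over WT ESC, and apart for Nanog-null over WT ESC, where Zscan4d and Zscan4e sit close to 0.

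Fibroblasts were compared with ESC of the same strain, c57/b6, in which Zscan4 RNA was itself scarce. MEF had 0 fragments of each member, against 15, 16 and 4 fragments of Zscan4c, Zscan4d and Zscan4f over both ESC samples. A limit of 3 fragments over the MEF group was taken for the count of 0. The observed ESC level was 6.96 times that limit for Zscan4c, 7.42 times for Zscan4d and 16.2 times for the sum. These ratios take the few ESC fragments as exact, so they are not lower bounds. Zscan4c, Zscan4d and the sum passed the edgeR quasi-likelihood test (adjusted p = 0.00011, 8.6e-05 and 4.1e-08). Zscan4f, whose 4 fragments put it at 1.86 times the limit, passed as well (adjusted p = 0.018). The low-count filter and the fit took in all 9 groups, among them groups of the other strain in which the members were far higher. These p-values therefore do not rest on the MEF and c57/b6 ESC fragments alone, and no conclusion is drawn from them. The samples themselves show 0 fragments in MEF against few in these ESC. Of all genes tested, 75.8% passed, 37.5% as higher and 38.3% as lower. With an added term for sample code none of these calls held (adjusted p = 0.13, 0.19, 0.37 and 0.079 for Zscan4c, Zscan4d, Zscan4f and the sum). MEF and these ESC all have codes that start with JI, so that term cannot correct for sample series between them. It assumes equal iPSC-ESC differences in both strains. The call of Zscan4f was also lost when the fourth WT ESC sample or the second MEF sample was left out.

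Between strains, the summed level was 54.7 times higher in WT ESC of strain 129/B6 than of strain c57/b6 in CPM, 39.1 times with TMM scaling and 37.4 times with DESeq2 size factors, and the labels give the same passage range for both. The ESC samples of the strains did not overlap for any member. How many of all genes did likewise was not counted, so this does not set the members apart. Strain and the prefix of the sample codes go together in every sample, and this ratio was not tested.

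**Figure D4:**
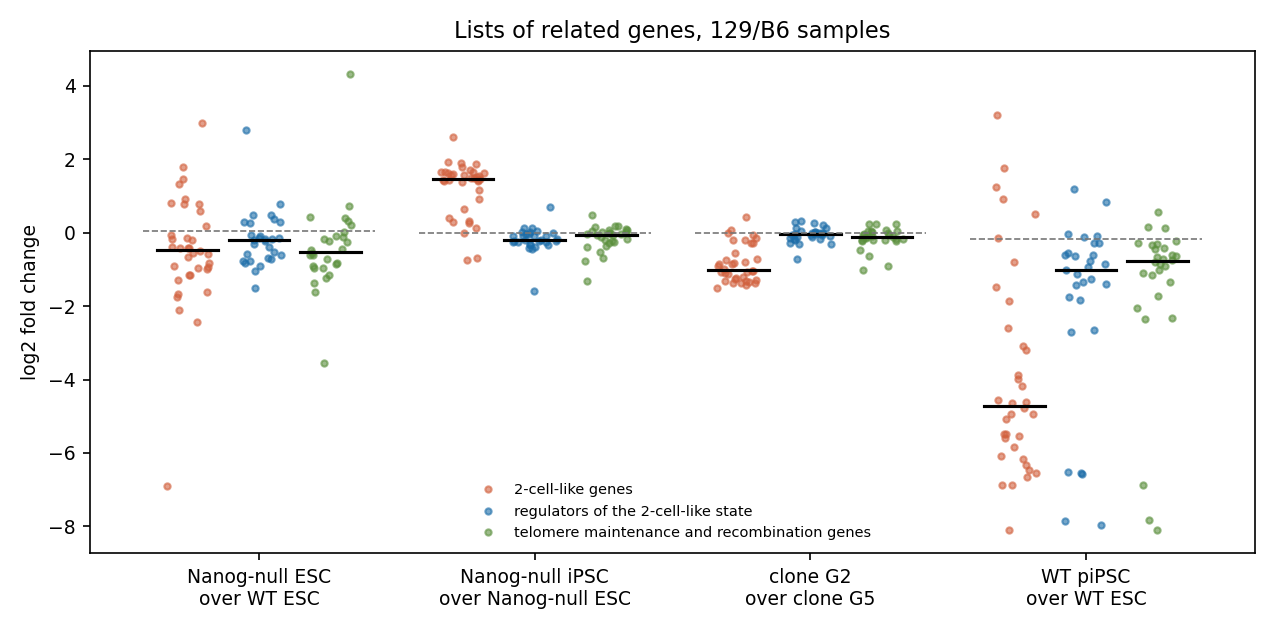
Log2 fold changes (vertical axis) of single genes (points) of 3 lists in the 4 comparisons between 129/B6 groups, with the median of each list (black bar) and of all genes tested (dashed line). Medians of the 2-cell-like genes lie at -0.46, 1.47, -1.01 and -4.71 from left to right.

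The genes whose levels ran most closely with the members over the samples included 5 of the 2-cell-like list (Gm2016, Gm8300, Tmem92, Gm12794 and BB287469). By Pearson's r of log2(FPKM + 1) with the members' mean over 17 samples, given as a description because replicates of a group share its level, the 10 most alike outside the family were Gm2016 (0.994), Gm8300, Tmem92, Dhtkd1, Gm12794, Gm9343, Gm7942, Gm12800, BB287469 and Gm8038 (0.989). Without the 129/B6 iPSC sample, r ranged from 0.990 to 0.996 over the leading 10, of which Gm2016, Gm8300, Tmem92, Dhtkd1, Gm7942 and BB287469 were also in the first list. Those that entered were Gm2022, Gm2046, Gm6763 and Gm8994, named Eif4a3l1 in RefSeq. Gm8994 was at 8.54 FPKM in the 129/B6 iPSC sample and at a mean of 11.6 in 129/B6 WT ESC, so it ran with Zscan4 in the other 16 samples but not in that one, and its r over 17 samples was 0.917. Dhtkd1, an enzyme of lysine breakdown in mitochondria, was at 473 FPKM in the 129/B6 iPSC sample and at a mean of 70.2 in 129/B6 WT ESC.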

How the data were processed

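RNA-seq libraries from 17 samples were made with a TruSeq kit, per the labels' protocols. Per the submitters' processing notes, the tools were Cuffdiff 2.1.1, Bowtie2 2.0.5, TopHat2 2.0.7 and CASAVA, and the builds mm10 and NCBIM37 are named without a role. The authors deposited 1 table per sample with estimated counts of fragments per gene, not normalized, and FPKM, normalized by the authors for length and depth. These counts were whole, within 0.01, for 97.5% to 98.8% of genes in each sample. 19 genes whose status was not OK in some sample were left out.

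Estimated counts were rounded and tested with edgeR 4.0.16 (R 4.3.3; TMM scaling, low-count filter, quasi-likelihood test, 9 groups, adjusted p under 0.05 over all genes tested) after the code was tested on simulated data. CPM values were computed from the estimated counts. Each tested comparison lies within 1 strain. Alternatives used limma 3.58.1 on log2(FPKM + 1) and log2(FPKM + 0.1), DESeq2 1.42.0, other scaling and filters, the sample code as a term, a replicate block and each sample left out. The fit with the sample code as a term merges WT ESC of both strains, and WT iPSC likewise. It thus assumes the same iPSC-ESC difference in both strains.

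The members and lists were chosen with earlier results of these data known. Genes were named as members, as genes of the lists, as the 10 most alike over the samples, and as the 10 with the highest ratio of the 129/B6 iPSC sample to the highest other sample. Of the list symbols not found by name, 8 were matched by gene ID (Whsc2 for Nelfa, Dub1 for Usp17la and the like). Promoter sequences are RefSeq's, GRCm38.p6, and were matched for each member.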

Additional observations from a re-analysis of the deposited data

Results flagged for a closer look

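Zscan4d and Zscan4f showed opposite differences between iPSC and ESC in the strains. Zscan4d was at 294 CPM in the 129/B6 iPSC sample and at 39.0 and 28.3 in 129/B6 ESC, but at a mean of 0.381 in c57/b6 iPSC (0.429 and 0.332), below both c57/b6 ESC samples (0.549 and 1.15). Zscan4f was at 197 in the 129/B6 iPSC sample and at 22.7 and 22.0 in ESC, but at a mean of 0.0665 in c57/b6 iPSC (0 and 0.133), below both c57/b6 ESC samples (0.157 and 0.257). The c57/b6 values of these genes rest on 0 to 10 fragments a sample, for Zscan4f on 2 and 2 in ESC and 0 and 4 in iPSC. The 129/B6 side rests on the 1 iPSC sample for which the members were chosen. For Zscan4c, c57/b6 iPSC (0.572 and 0.332 CPM) and ESC (0.942 and 0.385) overlapped. The difference between the strains was not tested.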

How the results depend on the processing

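In the tested comparisons, the direction of each member and of their sum held under every alternative tried, except for Zscan4d in Nanog-null against WT ESC, which was not called and ranged from -0.22 to 0.23 as samples were left out: it stood at 0.23 without the first WT ESC sample, 0.05 without the second Nanog-null ESC sample and 0.21 without the genes higher in MEF. The cause was not tested. Counts of genes passing moved more. For Nanog-null iPSC against Nanog-null ESC, 4220 became 2771 with limma on log2(FPKM + 1), 2172 with log2(FPKM + 0.1), 2419 with a term for sample code and 2434 without the genes higher in MEF. For G2 against G5, 2175 became 946 with limma on log2(FPKM + 0.1), 3473 within strain 129/B6 alone, 1018 with a term for sample code and 854 without the genes higher in MEF. Without those genes, fewer being tested, 6515 passed in Nanog-null against WT ESC and 8008 in piPSC against WT ESC. Leaving out each sample in turn gave 9294 to 12211 for Nanog-null against WT ESC, 1852 to 5982 for Nanog-null iPSC against Nanog-null ESC, 1107 to 3541 for G2 against G5, 11715 to 13890 for piPSC and 12520 to 13801 for MEF. The counts moved by over 1.5 times without either Nanog-null ESC sample (2245 and 1852), without any sample of G2 or G5 (1107 to 1132) and without either c57/b6 ESC sample (3474 and 3541). The 129/B6 iPSC sample's ratio of 3.01 to the highest other sample was 2.95 in FPKM, 3.15 with TMM scaling, 3.13 with DESeq2 size factors, 3.29 over all 6 Zscan4 rows and 3.01 to 3.37 with each other sample left out, the last without the second G5 sample. Scaling the mean ratios between groups, an alternative added after seeing the data, turned the direction of the summed level in piPSC over c57/b6 iPSC, from 1.27 in CPM to 0.76 with TMM scaling and 0.84 with DESeq2 size factors. Replicate numbers did not pair the samples (15 pairs, correlation of deviations -0.042 to 0.12, 1 over 0.1). With a replicate block 3547 genes passed for G2 against G5, and Zscan4f in MEF was lost (adjusted p = 1), as it was with limma on log2(FPKM + 1) (0.19). Depth limits the c57/b6 and piPSC values, at 14 to 34 summed fragments a sample.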
